A study of Mus musculus with 20 samples.

Results

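The calcium pumps and store channels of mouse fat cells were followed through 10 genes, taken from a deposited table of 48440 genes by matching each Ensembl identifier, without its version, to the symbols Atp2a2, Atp2a3, Atp2b1, Atp2b4, Itpr1, Itpr2, Itpr3, Stim1, Stim2 and Orai1. All 10 were found, and all 10 passed the filter on low values, with 29 (Atp2a3) to 12356 (Atp2a2) assigned reads per library. The genes were selected on earlier results for the RPKM differences of the 4 manipulations from their controls, so these differences are given as a description and support nothing by themselves.

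The study measured mRNA by sequencing in 3T3-L1 cells, a preadipocyte line of Swiss mouse that becomes fat cells in culture, after the level of Foxk1 or Foxk2, a pair of related forkhead transcription factors, was altered. All 20 libraries came from cells differentiated with insulin (5 µg/ml), the glitazone troglitazone (10 µM), the glucocorticoid dexamethasone (1 µM) and the phosphodiesterase inhibitor isobutyl methylxanthine (0.5 mM), moved to insulin alone at day 4 and to growth medium at day 6. In the Foxk1 set, 3 libraries labelled as constituent overexpression of FOXK1 had 3 empty vector controls, and 3 libraries with a Foxk1 shRNA had 3 scrambled shRNA controls. The Foxk2 set had the same 4 kinds of library with 2 of each. The shRNA sequences, the promoter of the overexpression constructs and the time of RNA collection are not given in the sources used here. The RNA was taken from whole cultures, and in such bulk samples fewer cells of a type and less RNA per cell cannot be told apart. Levels are in RPKM, a read count divided by exon length and by library depth, so levels of different genes can be set side by side.

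Calcium signalling in a cell rests on a steep store of calcium in the endoplasmic reticulum (ER). SERCA pumps, encoded by Atp2a genes, load the store, and PMCA pumps, encoded by Atp2b genes, push calcium out of the cell. IP3 receptors, encoded by Itpr genes, let calcium out of the store when a hormone raises inositol trisphosphate. When the store runs low, the STIM sensors in the ER membrane open ORAI channels in the plasma membrane, and calcium enters to refill it. In fat cells, ER calcium is known to bear on lipid storage, insulin action and heat production.

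The targeted genes came first as a check of the labels. Foxk1 fell with its shRNA from 8.32 ± 0.424 to 3.25 ± 0.265 RPKM (SD, n = 3 and 3), and Foxk2 with its own from 12.9 ± 0.282 to 3.27 ± 0.0271 RPKM (SD, n = 2 and 2). Foxk2 rose in its overexpression from 13.4 ± 0.123 to 19.96 ± 0.0356 RPKM (SD, n = 2 and 2). Foxk1 was not higher in the libraries labelled Foxk1 overexpression: it was at 6.10 ± 0.0553 against 7.55 ± 0.468 RPKM (SD, n = 3 and 3), a log2 difference of -0.28 ± 0.055 (SE). Foxk2 was higher in these libraries, at 13.9 ± 0.333 against 11.3 ± 0.294 RPKM (SD, n = 3 and 3; log2 0.29 ± 0.040, SE). Each factor also moved in the other set: Foxk1 fell by 0.665 ± 0.067 in Foxk2 overexpression and rose by 0.30 ± 0.067 in Foxk2 knockdown, and Foxk2 fell by 0.19 ± 0.040 in Foxk1 knockdown (log2, SE; limma adjusted p at most 0.00271). Both factors' mRNAs thus passed the test in each of the 4 comparisons. The libraries labelled Foxk1 overexpression are named by their label throughout, and every direction drawn from them is that of the label. Assigned reads were 16739763 to 20772823 per library in the Foxk1 set and 31378225 to 36157010 in the Foxk2 set. The fit used 1 estimate of spread per gene, pooled over all libraries of both sets. The SE of a member was therefore larger in the Foxk2 set only through its 2 libraries a group (0.087 against 0.071 for Atp2a3). An SE printed for the Foxk2 set thus does not measure the spread of the Foxk2 libraries alone. No pair of libraries of one group held the same values. The 2 libraries of Foxk2 overexpression and those of Foxk2 knockdown stood apart from each other more than other replicates, with a chi-square per degree of freedom over genes of 51.01 and 31.99, against 2.7 to 10.75 in the other groups. Mitochondrial genes held 7.80 and 5.14% of reads in Foxk2 overexpression and 4.85 and 6.72% in Foxk2 knockdown, against 6.42 to 7.09% in the empty vector and 3.79 to 4.02% in the scrambled controls of that set. In the Foxk1 set they held 4.91 to 6.61%. Their part in the results was not tested.

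All 12 adipocyte markers (among them Adipoq, Fabp4 and Plin1) were detected in every group, with a summed level of 8012.8 to 11537.9 RPKM per library. The 12 fibroblast and preadipocyte markers (among them Col1a1, Dcn and Pdgfra) were detected too. Of 10 muscle markers, 9 stayed under 1 RPKM in every library, and Myh6 and Myog were at 0 throughout. Of 7 blood cell markers, Ptprc, Adgre1, Itgam and Pf4 stayed under 1 RPKM in every library.

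Promoter windows are shown for 3 members whose changes carry most of the description below: Atp2a3 and Itpr2, which were both higher in both overexpressions, and Itpr3, which was higher in both knockdowns. Each run holds the 250 bases before the start site in RefSeq (GRCm38.p6, the mm10 build), 5′ to 3′ on the gene's strand, and no annotated exon lies inside. Atp2a3 is at chr11:72960919-72961168 (plus strand), Itpr2 at chr6:146502224-146502473 (minus strand) and Itpr3 at chr17:27057054-27057303 (plus strand).
Atp2a3: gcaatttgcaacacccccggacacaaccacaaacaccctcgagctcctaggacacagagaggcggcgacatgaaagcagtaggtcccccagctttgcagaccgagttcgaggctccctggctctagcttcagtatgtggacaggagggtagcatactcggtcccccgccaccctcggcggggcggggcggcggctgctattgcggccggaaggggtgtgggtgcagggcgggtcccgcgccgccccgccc
Itpr2: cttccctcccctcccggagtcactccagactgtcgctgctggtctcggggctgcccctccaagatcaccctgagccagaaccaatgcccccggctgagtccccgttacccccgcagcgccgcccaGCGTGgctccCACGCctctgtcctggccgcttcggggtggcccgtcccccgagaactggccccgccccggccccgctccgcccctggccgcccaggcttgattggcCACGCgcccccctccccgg
Itpr3: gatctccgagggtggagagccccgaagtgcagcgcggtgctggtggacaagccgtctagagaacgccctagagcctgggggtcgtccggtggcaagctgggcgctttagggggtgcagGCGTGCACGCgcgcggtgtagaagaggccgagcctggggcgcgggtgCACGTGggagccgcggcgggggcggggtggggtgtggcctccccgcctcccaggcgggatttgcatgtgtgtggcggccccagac
Capitals mark matches, on either strand, to ACGTG or GCGTG, cores of the hypoxia response element. The forkhead core TAAACA and the longer GTAAACA, which contains it, were searched on both strands as well. RefSeq windows were at hand for 8 of the 10 members (9 windows, Atp2b1 having 2), and none held TAAACA or GTAAACA, which 12.0% and 3.17% of all 32851 windows of this length held. ACGTG was in the window of Itpr3 alone, where its matches on both strands overlap in CACGTG, and in 16.6% of all windows. GCGTG was in those of Itpr2, Itpr3, Orai1, Stim1 and Stim2, and in 28.2% of all windows. A match is a run of letters, not a bound site, and these shares say only which letters the windows hold. The windows of Atp2a3, Itpr2 and Itpr3 were 66.8, 74.4 and 72.0% G or C.

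**Figure D1:**
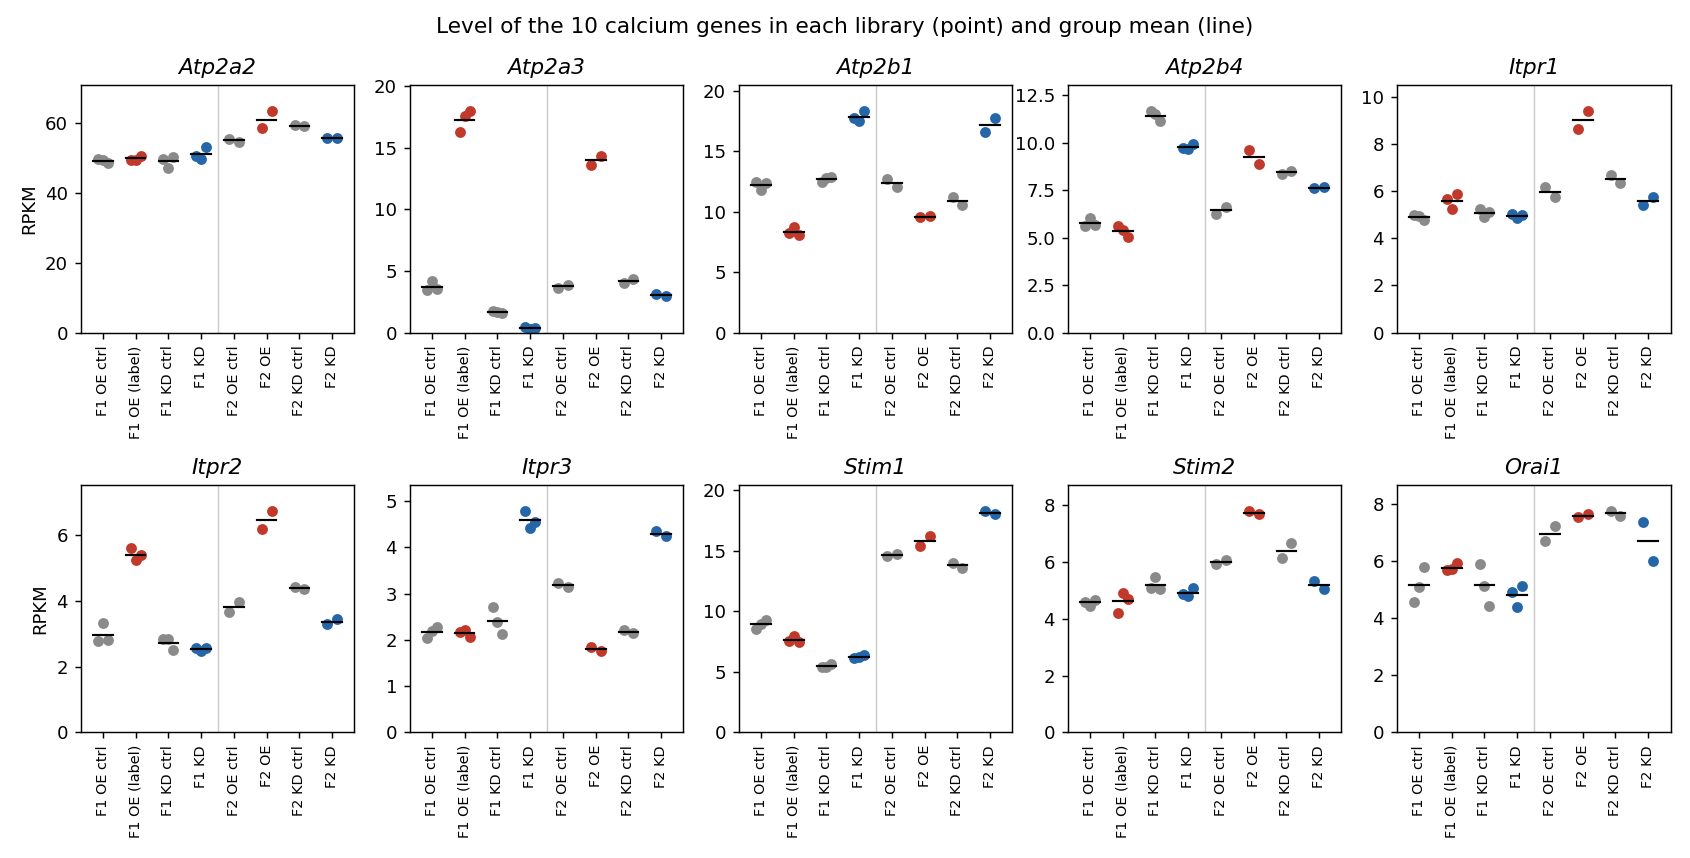
RPKM (vertical axis, from 0) of the 10 genes in each library (points) and the mean of each group (lines), with controls in grey, overexpression in red and knockdown in blue. F1 is the Foxk1 set, F2 the Foxk2 set, OE overexpression, KD knockdown and ctrl the controls. The 5 overexpression libraries of Atp2a3 lie between 13.6 and 17.9 RPKM and all other libraries at 4.38 RPKM or less.

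The 4 comparisons were fitted in 1 linear model over all libraries (limma), on log2(RPKM + 0.5), and a gene was called where its p, adjusted over all 15981 genes tested by the Benjamini-Hochberg method, was under 0.05. Whether replicates came from separate cultures is not stated in the labels. The p-values therefore measure only the spread between these libraries, pooled over all groups, which may be technical. In the labelled Foxk1 overexpression 3 members were called higher and 2 lower, where 24.1% of all genes tested were called higher and 23.8% lower (47.8% in all). In Foxk1 knockdown 3 were higher and 2 lower (20.4% and 15.5% of all genes, 35.9% in all). In Foxk2 overexpression 6 were higher and 2 lower (23.0% and 22.0% of all genes, 45.0% in all). In Foxk2 knockdown 3 were higher and 4 lower (18.0% and 15.7% of all genes, 33.7% in all). Leaving out 1 library at a time gave 5 to 7 members higher and 2 lower in Foxk2 overexpression, and 3 higher and 3 to 5 lower in Foxk2 knockdown. With the trend on gene length and GC content removed from each library, the members called lower were 5 in Foxk1 knockdown and 7 in Foxk2 knockdown. That setting also turned the split of all calls, from 56.9 to 43.6% higher in Foxk1 knockdown and from 53.5 to 40.7% higher in Foxk2 knockdown.

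The median log2 difference of the 10 members was 0.015, -0.054, 0.24 and -0.16 in the labelled Foxk1 overexpression, Foxk1 knockdown, Foxk2 overexpression and Foxk2 knockdown. Over all genes tested it was 0.0, 0.017 and 0.0016 in the first 3 and 0 within rounding in the last. The libraries of a comparison did not overlap for 5, 5, 10 and 10 members in that order, where 52.3, 44.2, 70.3 and 67.2% of all genes had ranges apart. The group has no common direction: in every comparison some members were higher and others lower.

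**Figure D2:**
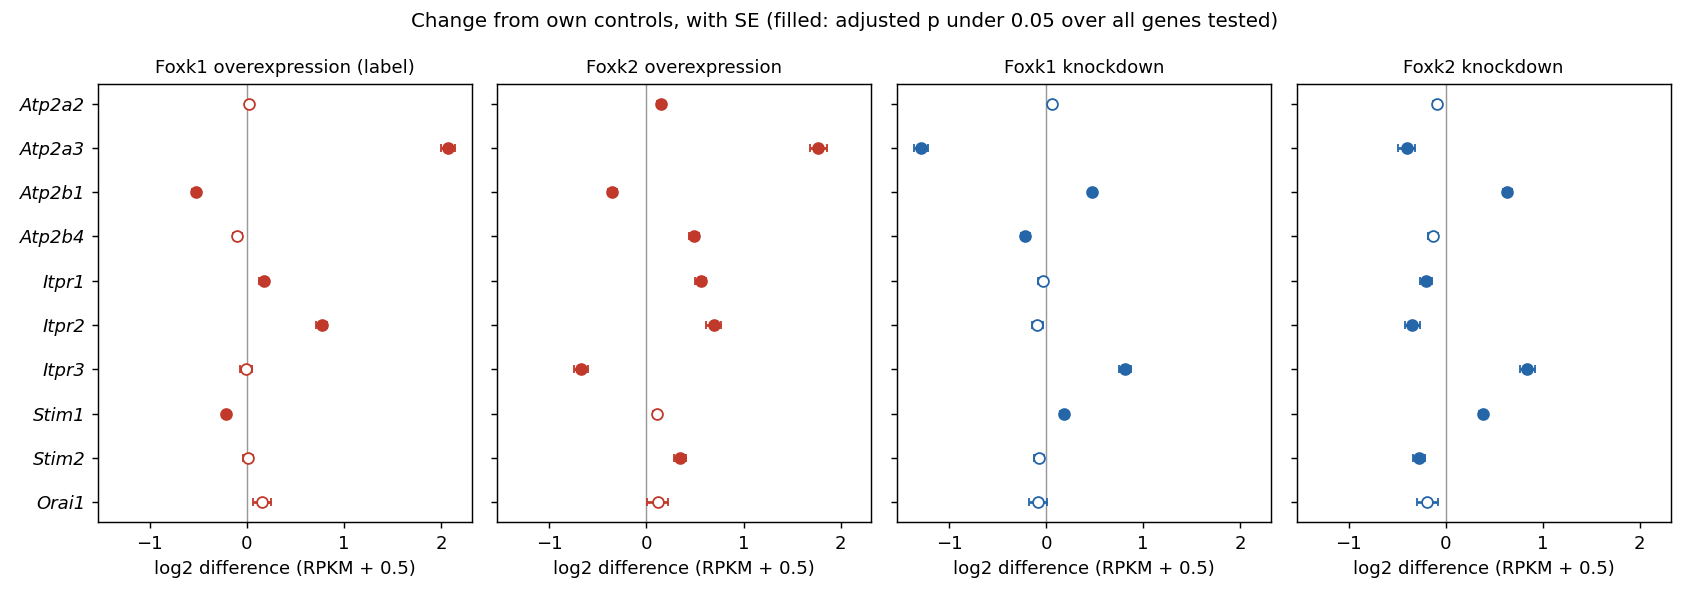
Log2 difference of each member from its own controls (horizontal axis, log2 of RPKM + 0.5) with its SE in the 4 comparisons. Filled points were called at an adjusted p under 0.05 over all genes tested, and open points were not; Atp2a3 has the point farthest from 0 in 3 panels, Itpr3 in Foxk2 knockdown.

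Atp2a2 encodes SERCA2, the housekeeping ER pump (chromosome 5, 122453513 to 122502225, minus strand, in mm10). It had the highest level of the 10 in every group, and its 20-library mean of 52.99 RPKM lay at the 93.2th percentile of the genes tested. It read 49.8, 49.4 and 48.4 RPKM in the empty vector controls of the Foxk1 set and 49.5, 49.5 and 50.7 RPKM in the labelled Foxk1 overexpression, which overlap. Its log2 difference there was 0.021, with a 95% interval of -0.049 to 0.091, and in Foxk1 knockdown it was 0.061 (-0.0094 to 0.13). Neither was called. In the Foxk2 set it was called higher in overexpression (58.6 and 63.3 against 55.4 and 54.6 RPKM, log2 0.15 ± 0.040, SE). That call was lost without Foxk2 overexpression replicate 2 (0.091), with quantile normalization (0.079) and with the 2 groups fitted alone (0.146). In Foxk2 knockdown it read 55.7 and 55.7 against 59.5 and 59.1 RPKM (log2 -0.090, not called).

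Atp2a3 encodes SERCA3, a pump of lower calcium affinity best known from blood cells, endothelium and secretory cells (chromosome 11, 72961169 to 72993044, plus strand). It was 4.61-fold higher in the labelled Foxk1 overexpression and 3.73-fold higher in Foxk2 overexpression, the largest differences among the members. In the Foxk1 set it read 3.44, 4.23 and 3.55 RPKM in the empty vector controls and 16.3, 17.6 and 17.9 RPKM in the labelled overexpression (log2 2.07 ± 0.071, SE). In the Foxk2 set it read 3.62 and 3.86 RPKM in the controls and 13.6 and 14.4 RPKM in overexpression (log2 1.77 ± 0.087). Every overexpression library stood far above every control library in both sets. Ranked among the genes tested from the highest log2 difference down, it was number 13 in the first comparison and number 44 in the second.

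In both knockdowns Atp2a3 was lower. It read 1.80, 1.67 and 1.56 RPKM in the scrambled controls of the Foxk1 set and 0.430, 0.328 and 0.410 RPKM with the Foxk1 shRNA, a ratio of means of 0.232. The log2 difference was -1.29 ± 0.071 (SE), against -1.86 with a pseudocount of 0.1 and -2.09 with limma-voom on the recovered reads; the level in knockdown is below the added 0.5. In the Foxk2 set it read 3.99 and 4.38 RPKM in the scrambled controls and 3.11 and 2.96 RPKM with the Foxk2 shRNA (log2 -0.40 ± 0.087). The ranges were apart in both sets, and both were called lower. The effect of Foxk1 knockdown was lower than that of Foxk2 knockdown by 0.89 ± 0.11 on the log2 scale (SE). The 2 sets differ in depth, replicate number and every other step tied to the set, which cannot be told apart from the factor.

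The make-up of SERCA mRNA differed with the manipulations. Atp2a3 held 7.06 ± 0.738% of the summed SERCA RPKM in the empty vector controls of the Foxk1 set and 25.7 ± 0.826% in the labelled Foxk1 overexpression (SD, n = 3 and 3). With Foxk2 it held 6.37 ± 0.332% in the controls and 18.7 ± 0.252% in overexpression (SD, n = 2 and 2). Foxk1 knockdown took the share from 3.31 ± 0.250% to 0.755 ± 0.0953% (SD, n = 3 and 3), and Foxk2 knockdown from 6.59 ± 0.436% to 5.17 ± 0.180% (SD, n = 2 and 2). The summed SERCA level was 67.2 ± 1.43 against 52.9 ± 0.836 RPKM in the labelled Foxk1 overexpression (SD, n = 3 and 3). It was 74.9 ± 3.86 against 58.8 ± 0.403 RPKM in Foxk2 overexpression (SD, n = 2 and 2). These shares use the same libraries as the changes above and add no independent support. Atp2a1, the fast muscle SERCA, and the SERCA inhibitors Pln and Sln did not reach the filter on low values.

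**Figure D3:**
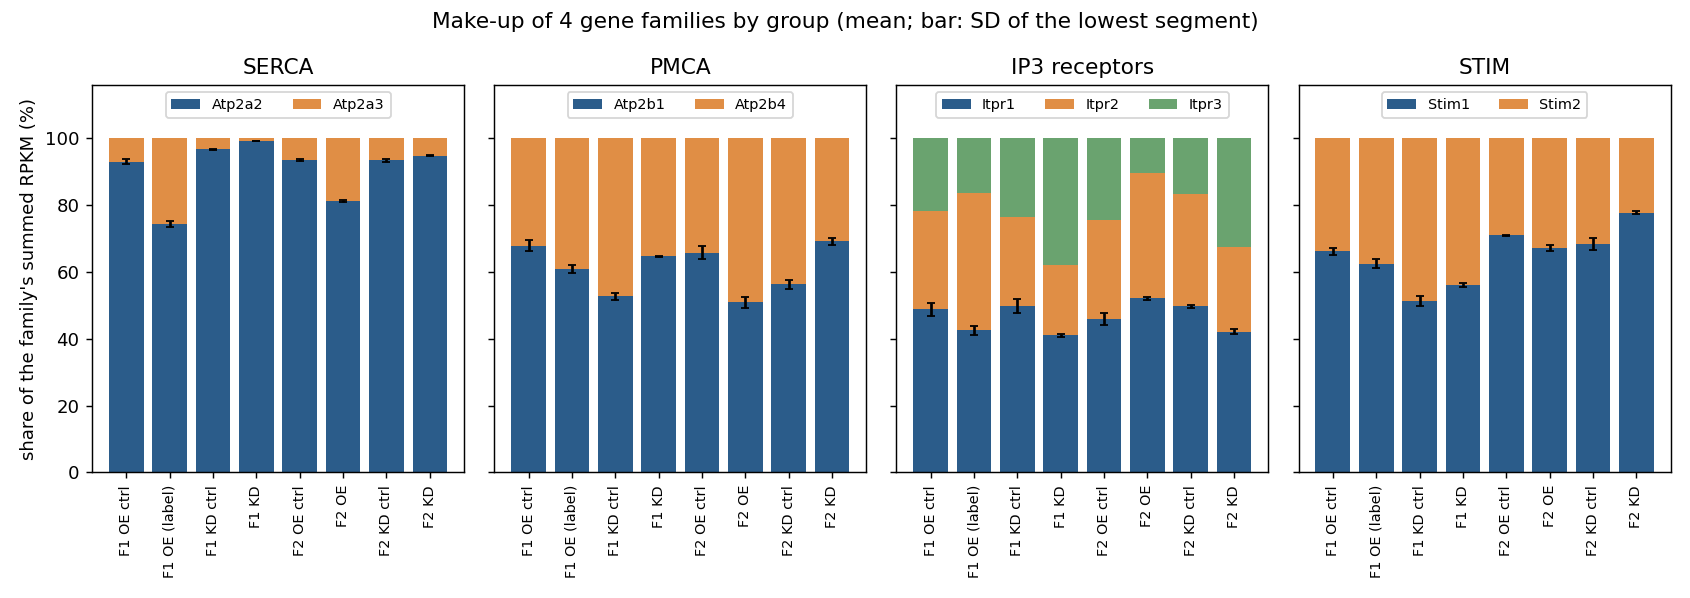
Share of each family's summed RPKM (vertical axis, percent) held by its members in each group, as the mean over libraries; the error bar is the SD of the lowest segment. Groups are abbreviated as in the plot of levels by library. The Atp2a3 segment is widest in the overexpressions (25.7 and 18.7%), and the Itpr3 segment in the knockdowns (38.0 and 32.4%). PMCA shares depend on the exon length taken for Atp2b1.

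Atp2b1 encodes PMCA1, the common plasma membrane calcium pump (chromosome 10, 98914406 to 99026143, plus strand). It showed the reverse of Atp2a3 in all 4 comparisons. In the Foxk1 set it read 12.4, 11.8 and 12.4 RPKM in the empty vector controls and 8.21, 8.72 and 8.09 RPKM in the labelled overexpression (log2 -0.52 ± 0.039, SE). With the Foxk1 shRNA it read 17.8, 17.6 and 18.3 RPKM, against 12.5, 12.8 and 12.9 RPKM with the scrambled one (log2 0.48 ± 0.039). The controls of both kinds thus sat between the 2 manipulations. In the Foxk2 set it read 12.8 and 12.0 RPKM in the empty vector controls and 9.54 and 9.62 RPKM in overexpression (log2 -0.35 ± 0.047). With the Foxk2 shRNA it read 16.6 and 17.8 RPKM, against 11.2 and 10.6 RPKM (log2 0.63 ± 0.047). Ranges were apart in each comparison. The level depends on the gene model: the deposited values fit an exon length of 7130 bases, while the merged exons of GENCODE M21 span 15218 bases. Whether the differences would change with the longer model was not tested.

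Atp2b4 encodes PMCA4, another plasma membrane pump (chromosome 1, 133699457 to 133801041, minus strand). It was called higher in Foxk2 overexpression (9.62 and 8.86 against 6.23 and 6.64 RPKM, log2 0.49 ± 0.053, SE). The labelled Foxk1 overexpression read 5.62, 5.42 and 5.04 RPKM against 5.60, 6.05 and 5.66 RPKM (log2 -0.098, not called), and these ranges overlap. In Foxk1 knockdown it was called lower (9.71, 9.69 and 9.91 against 11.6, 11.5 and 11.1 RPKM, log2 -0.215 ± 0.044). Foxk2 knockdown read 7.63 and 7.64 RPKM against 8.34 and 8.52 RPKM (log2 -0.13, not called). In Foxk2 knockdown Atp2b4 thus lay on the other side of 0 from Atp2b1, with ranges apart but no call. By the calls, Atp2b1 and Atp2b4 went apart in Foxk1 knockdown and in Foxk2 overexpression. In the latter their summed level was 18.8 ± 0.476 against 18.8 ± 0.230 RPKM, while the share of Atp2b4 was 49.1 ± 1.63 against 34.2 ± 1.96% (SD, n = 2 and 2). In Foxk1 knockdown the sum was 27.7 ± 0.504 against 24.2 ± 0.131 RPKM, and the share of Atp2b4 was 35.3 ± 0.220 against 47.3 ± 0.976% (SD, n = 3 and 3). Foxk2 knockdown had a sum of 24.8 ± 0.880 against 19.3 ± 0.311 RPKM (SD, n = 2 and 2). The share of Atp2b4 there was 30.8 ± 1.04 against 43.6 ± 1.35%. All these sums and shares rest on an exon length of 7130 bases for Atp2b1. They would differ with the 15218 bases of GENCODE M21.

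The 3 IP3 receptors are the release channels of the store. Itpr1, the most abundant of the 3 here and the main form in neurons (chromosome 6, 108213096 to 108551109, plus strand), was called higher in both overexpressions. It read 5.66, 5.25 and 5.88 against 4.99, 4.93 and 4.77 RPKM in the labelled Foxk1 overexpression (log2 0.17 ± 0.047, SE). Foxk2 overexpression gave a wider gap, 8.65 and 9.38 against 6.16 and 5.75 RPKM (log2 0.56 ± 0.058). In Foxk1 knockdown its ranges overlapped (log2 -0.033, 95% interval -0.13 to 0.067). In Foxk2 knockdown it read 5.43 and 5.75 against 6.67 and 6.35 RPKM (log2 -0.20 ± 0.058, called lower). That call was lost without Foxk2 knockdown replicate 1 (-0.165) or its control replicate 1 (-0.17), and with the 2 groups or the Foxk2 set fitted alone (-0.203 in both).

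Itpr2, a receptor of high IP3 sensitivity (chromosome 6, 146108299 to 146502223, minus strand), was 1.82-fold higher in the labelled Foxk1 overexpression and 1.70-fold higher in Foxk2 overexpression. It read 2.79, 3.33 and 2.81 RPKM in the empty vector controls of the Foxk1 set and 5.61, 5.23 and 5.39 RPKM in the labelled overexpression (log2 0.77 ± 0.061, SE). In the Foxk2 set it read 3.65 and 3.96 RPKM and then 6.18 and 6.73 RPKM (log2 0.69 ± 0.075). The ranges were apart in both sets, and the difference between the effects was 0.078 (95% interval -0.13 to 0.28). With the Foxk1 shRNA the ranges overlapped (2.49 to 2.56 against 2.52 to 2.84 RPKM, log2 -0.090, not called). With the Foxk2 shRNA it was called lower (3.29 and 3.44 against 4.44 and 4.37 RPKM, log2 -0.34 ± 0.075).

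Itpr3, the form prominent in secretory epithelia and at contacts with mitochondria (chromosome 17, 27057304 to 27122223, plus strand), was higher in both knockdowns, with ratios of means of 1.91 for Foxk1 and 1.97 for Foxk2. It read 2.70, 2.38 and 2.12 RPKM with scrambled shRNA and 4.78, 4.42 and 4.55 RPKM with the Foxk1 shRNA (log2 0.81 ± 0.062, SE). With the Foxk2 shRNA it read 4.34 and 4.25 RPKM against 2.20 and 2.16 RPKM (log2 0.84 ± 0.076). All 5 knockdown libraries stood above every other library of the series. The 2 effects differed by -0.028 (95% interval -0.24 to 0.18). In Foxk2 overexpression it was called lower, with 1.84 and 1.77 against 3.22 and 3.14 RPKM (log2 -0.68 ± 0.076). In the labelled Foxk1 overexpression the ranges overlapped (2.06 to 2.21 against 2.03 to 2.28 RPKM, log2 -0.0094, 95% interval -0.14 to 0.12).

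The make-up of IP3 receptor mRNA followed. Itpr3 held 38.0 ± 0.617% of it in Foxk1 knockdown against 23.5 ± 1.64% in the controls (SD, n = 3 and 3), and 32.4 ± 1.139% in Foxk2 knockdown against 16.7 ± 0.134% (SD, n = 2 and 2). In Foxk2 overexpression it held 10.5 ± 0.806% against 24.6 ± 0.200% (SD, n = 2 and 2). Itpr2 held 41.1 ± 0.672% in the labelled Foxk1 overexpression against 29.6 ± 1.98% (SD, n = 3 and 3). The summed level of the 3 receptors was 13.15 ± 0.413 against 10.04 ± 0.354 RPKM in the labelled Foxk1 overexpression (SD, n = 3 and 3). In Foxk1 knockdown it was 12.1 ± 0.307 against 10.2 ± 0.541 RPKM (SD, n = 3 and 3). Foxk2 overexpression had 17.3 ± 0.851 against 12.9 ± 0.138 RPKM (SD, n = 2 and 2). The ranges of the sum were apart in each of these. In Foxk2 knockdown they overlapped, at 13.3 ± 0.267 against 13.1 ± 0.305 RPKM (SD, n = 2 and 2).

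Stim1 encodes the main calcium sensor of the ER membrane (chromosome 7, 102267806 to 102437319, plus strand). It was called lower in the labelled Foxk1 overexpression (7.53, 7.97 and 7.50 against 8.57, 8.98 and 9.29 RPKM, log2 -0.21 ± 0.036, SE). It was called higher in both knockdowns, by 6.17, 6.26 and 6.39 against 5.39, 5.40 and 5.63 RPKM for Foxk1 (log2 0.18 ± 0.036) and by 18.3 and 18.0 against 14.03 and 13.57 RPKM for Foxk2 (log2 0.38 ± 0.044). Foxk2 overexpression read 15.4 and 16.2 against 14.6 and 14.7 RPKM (log2 0.11, not called), with ranges apart. Stim1 stayed uncalled there in 25 of 32 other settings. It was called higher in the rest, among them median-ratio scaling (0.126), limma-voom (0.11), the Foxk2 set fitted alone (0.107) and the length and GC trend removed (0.261).

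Stim2, the sensor that reacts to small losses of store calcium (chromosome 5, 53998499 to 54121057, plus strand), differed in the Foxk2 set only by the calls: it read 7.78 and 7.68 against 5.93 and 6.06 RPKM in overexpression (log2 0.34 ± 0.062, SE) and 5.33 and 5.03 against 6.14 and 6.64 RPKM in knockdown (log2 -0.28 ± 0.062). In the Foxk1 set the log2 difference was 0.0082 (95% interval -0.10 to 0.12) in the labelled overexpression and -0.074 (-0.18 to 0.035) in knockdown. The difference between the 2 overexpression effects was -0.33 ± 0.081 (SE) and passed the threshold; that between the knockdown effects, 0.20 ± 0.081, did not. The share of Stim1 in the summed STIM level was 77.8 ± 0.548% in Foxk2 knockdown against 68.3 ± 1.72% in its controls (SD, n = 2 and 2). In Foxk1 knockdown it was 56.1 ± 0.507 against 51.3 ± 1.503% (SD, n = 3 and 3).

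Orai1 encodes the pore of the entry channel (chromosome 5, 123015074 to 123030456, plus strand), and it was called in none of the 4 comparisons. It had the largest SE of the 10 members, 0.094 in the Foxk1 set. It read 4.58, 5.11 and 5.78 RPKM in the empty vector controls of the Foxk1 set and 5.69, 5.71 and 5.92 RPKM in the labelled overexpression. The log2 differences were 0.16 (95% interval -0.044 to 0.36) in the labelled Foxk1 overexpression and 0.115 (-0.13 to 0.36) in Foxk2 overexpression. In the knockdowns they were -0.083 (-0.28 to 0.12) for Foxk1 and -0.19 (-0.44 to 0.054) for Foxk2. It had 169 to 607 reads per library, and a log2 difference of 0.17, as seen for Itpr1 in the labelled Foxk1 overexpression, lies inside its interval in both overexpressions. Exons of Itpr3 share 2.58% of their bases with the antisense gene Itpr3os and those of Atp2a2 share 1.36% with an antisense gene. Those of Itpr1 share 0.988% with Gm44101 and 0.59% with Gm44040, and those of Orai1 share 0.305% with Gm2479, all antisense. Since the strand of the libraries is not given in the sources used here, reads on those bases could be of either gene. Atp2a2 also matched another annotated gene, Gm30970, over 362 bases at 99% identity or more. At that identity Itpr1 matched Gm44101 (184 bases) and Gm44040 (113 bases), and Itpr3 matched Itpr3os (142 bases).

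Called in both the overexpression and the knockdown of one factor, in opposite directions, were Atp2a3, Atp2b1 and Stim1 for Foxk1 (3 of 10, 21.4% of all genes tested). For Foxk2 they were Atp2a3, Atp2b1, Itpr1, Itpr2, Itpr3 and Stim2 (6 of 10, 22.0% of all genes). Called the same way in both overexpressions were Atp2a3, Atp2b1, Itpr1 and Itpr2 (4 of 10, 27.5% of all genes), and in both knockdowns Atp2a3, Atp2b1, Itpr3 and Stim1 (4 of 10, 19.3%). Atp2a3 and Atp2b1 were the only members called one way in overexpression and the other way in knockdown for both factors, as 11.5% of all genes did. The difference between the effects of the 2 factors passed the threshold for 5 members in overexpression (25.1% of all genes tested) and for 2 in knockdown (14.3%). These counts use the comparisons by which the genes were chosen, and nothing is read from them.

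Fibroblast and preadipocyte markers moved with the manipulations. All 12 were called lower in both overexpressions and higher in both knockdowns, in every alternative setting run. Their summed level was 549.6 to 576.4 RPKM in the labelled Foxk1 overexpression against 1134.2 to 1337.2 RPKM in its controls, and 519.0 to 533.7 RPKM against 1053.1 to 1077.9 RPKM in Foxk2 overexpression. It was 3312.8 to 3480.1 RPKM against 1899.9 to 2039.4 RPKM in Foxk1 knockdown and 1725.4 to 1790.1 RPKM against 696.5 to 699.0 RPKM in Foxk2 knockdown. In both knockdowns, where these markers were higher, Atp2b1, Itpr3 and Stim1 were called higher and Atp2a3 lower. In both overexpressions, where the markers were lower, Atp2b1 was called lower and Atp2a3 higher. Itpr3 was not called in the labelled Foxk1 overexpression (log2 -0.0094), nor Stim1 in Foxk2 overexpression (0.11), where some other settings called Stim1 higher. Of the 12 adipocyte markers, 3, 0, 4 and 1 were called higher and 7, 9, 6 and 5 called lower in the order of the labelled Foxk1 overexpression, Foxk1 knockdown, Foxk2 overexpression and Foxk2 knockdown. The part of either in the differences of the members was not tested. Of the 7 blood cell markers 3 were tested, and they went different ways. Cd14 fell in both overexpressions (log2 -1.08 and -0.63, labelled Foxk1 and Foxk2) and rose in both knockdowns (1.02 and 0.84), Csf1r rose in the labelled Foxk1 overexpression (0.25), and Cd68 rose in Foxk2 knockdown (0.69). The summed level of the 7 was 4.80 to 5.47 RPKM in the labelled Foxk1 overexpression against 6.04 to 6.85 RPKM, and 4.73 to 5.16 against 6.04 to 6.69 RPKM in Foxk2 overexpression. In the knockdowns it was 6.79 to 7.43 against 4.44 to 4.86 RPKM with Foxk1 and 6.59 to 7.93 against 3.70 to 3.95 RPKM with Foxk2. Their part in the differences of Atp2a3 was not tested.

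The 2 kinds of control, scrambled shRNA and empty vector, were also compared with each other. The choice of genes did not use this contrast, but these libraries are the reference of every difference it used, so the tests are not independent of it. In the Foxk1 set, limma called 4 of the 10 members between them (44.8% of all genes tested were called). Atp2a3 was lower with scrambled shRNA than with the empty vector, at 1.68 ± 0.116 against 3.74 ± 0.426 RPKM (SD, n = 3 and 3; log2 -0.96 ± 0.071, SE; limma adjusted p = 3.22e-08). Atp2b4 was higher, at 11.4 ± 0.272 against 5.77 ± 0.244 RPKM (SD, n = 3 and 3; log2 0.93 ± 0.044; limma adjusted p = 1.86e-10). Stim1 was lower, at 5.48 ± 0.134 against 8.95 ± 0.360 RPKM (SD, n = 3 and 3; log2 -0.66 ± 0.036; limma adjusted p = 9.4e-10). For Atp2b4 and Stim1 the gap between the control types was larger than the difference between either manipulation of the Foxk1 set and its own controls. Stim2 was higher by 0.17 ± 0.051 (SE, limma adjusted p = 0.014), a call that was lost with median-ratio scaling (0.092) and without scrambled control replicate 2 (0.13) or empty vector replicate 2 (0.15).

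In the Foxk2 set, limma called 3 of the 10 members between the control types (18.9% of all genes tested). Atp2b4 was higher with scrambled shRNA there too, at 8.43 ± 0.126 against 6.43 ± 0.290 RPKM (SD, n = 2 and 2; log2 0.37 ± 0.053; limma adjusted p = 0.000219). Itpr3 was lower, at 2.18 ± 0.0332 against 3.18 ± 0.0599 RPKM (SD, n = 2 and 2; log2 -0.46 ± 0.076; limma adjusted p = 0.000636). Atp2b1 was lower by 0.18 ± 0.047 on the log2 scale (SE, limma adjusted p = 0.0156). That call was lost without scrambled control replicate 2 (-0.14) or empty vector replicate 1 (-0.14). Atp2a3 read 4.18 ± 0.274 against 3.74 ± 0.169 RPKM (SD, n = 2 and 2; log2 0.14, limma adjusted p = 0.307). The fibroblast markers differed between the control types as well: 10 of 12 were higher with scrambled shRNA in the Foxk1 set, and 12 of 12 were lower in the Foxk2 set. Levels of a member in overexpression and knockdown libraries should therefore be read only against their own controls.

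**Figure D4:**
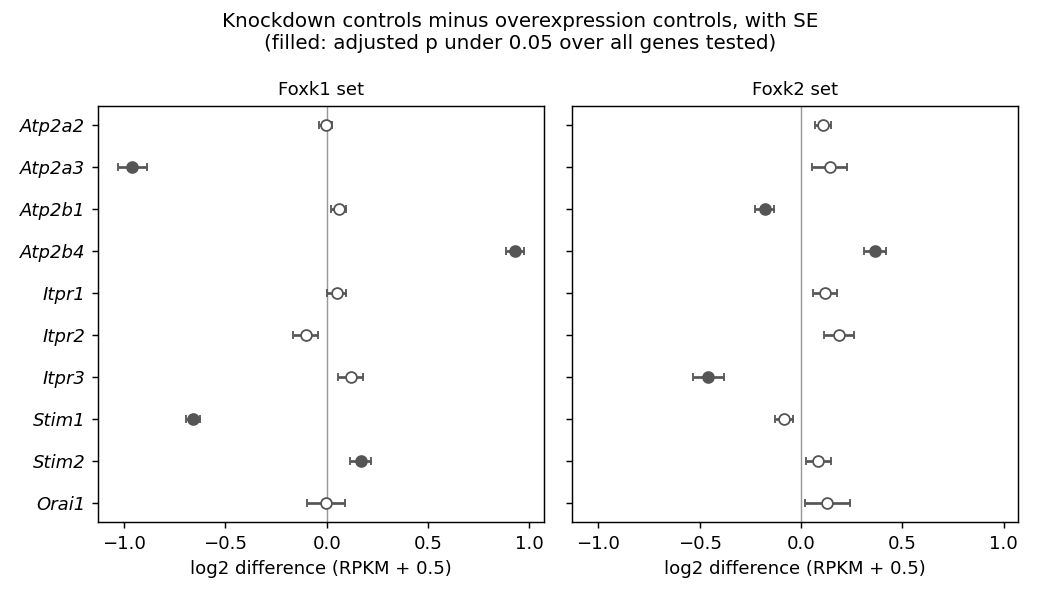
Log2 difference (RPKM + 0.5, horizontal axis) of each member between scrambled shRNA and empty vector controls, with its SE, in the Foxk1 set (left) and the Foxk2 set (right). Filled points were called at an adjusted p under 0.05: Atp2a3, Atp2b4, Stim1 and Stim2 on the left, and Atp2b1, Atp2b4 and Itpr3 on the right.

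The genes whose pattern over the 20 libraries was most like that of the 3 members with the largest differences were found by Pearson's r, with each library taken as log2(RPKM + 0.5) minus the mean of its own controls, among 9212 genes at a mean of 2 RPKM or more. For Atp2a3 they were Pgam1, a glycolytic mutase (r = 0.995), Chchd10, a mitochondrial cristae protein (0.994), and Eprs, a tRNA synthetase (0.994). Chchd10 had log2 differences of 2.18, -1.36, 1.73 and -0.54 in the labelled Foxk1 overexpression, Foxk1 knockdown, Foxk2 overexpression and Foxk2 knockdown, beside 2.07, -1.29, 1.77 and -0.40 for Atp2a3. For Itpr3 they were Aebp1, an extracellular matrix protein (0.98), Gpatch8 (0.976) and Myh9, non-muscle myosin (0.966). For Itpr2 they were Krt79, a keratin (0.987), Arf1, a trafficking GTPase (0.986), and Elovl3, a fatty acid elongase (0.985). The points share libraries and the same 8 groups, and genes were picked for the highest r, so these values are a description.

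Other genes of calcium handling were taken from 8 role lists with 94 genes, none of them a member. Of these, 71 passed the filter on low values. In the labelled Foxk1 overexpression 15 rose and 23 fell, where 24.1% of all genes tested rose and 23.8% fell. In Foxk1 knockdown 25 rose and 13 fell (20.4% and 15.5% of all genes), in Foxk2 overexpression 23 rose and 23 fell (23.0% and 22.0%), and in Foxk2 knockdown 17 rose and 16 fell (18.0% and 15.7%). The counts by role below stand against the same shares, and nothing particular to a list is read from them. The median log2 difference of the 71 was -0.070, 0.048, 0.00054 and 0.020 in that order. Some of these genes changed more than most members did, and they are given by role.

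**Figure D5:**
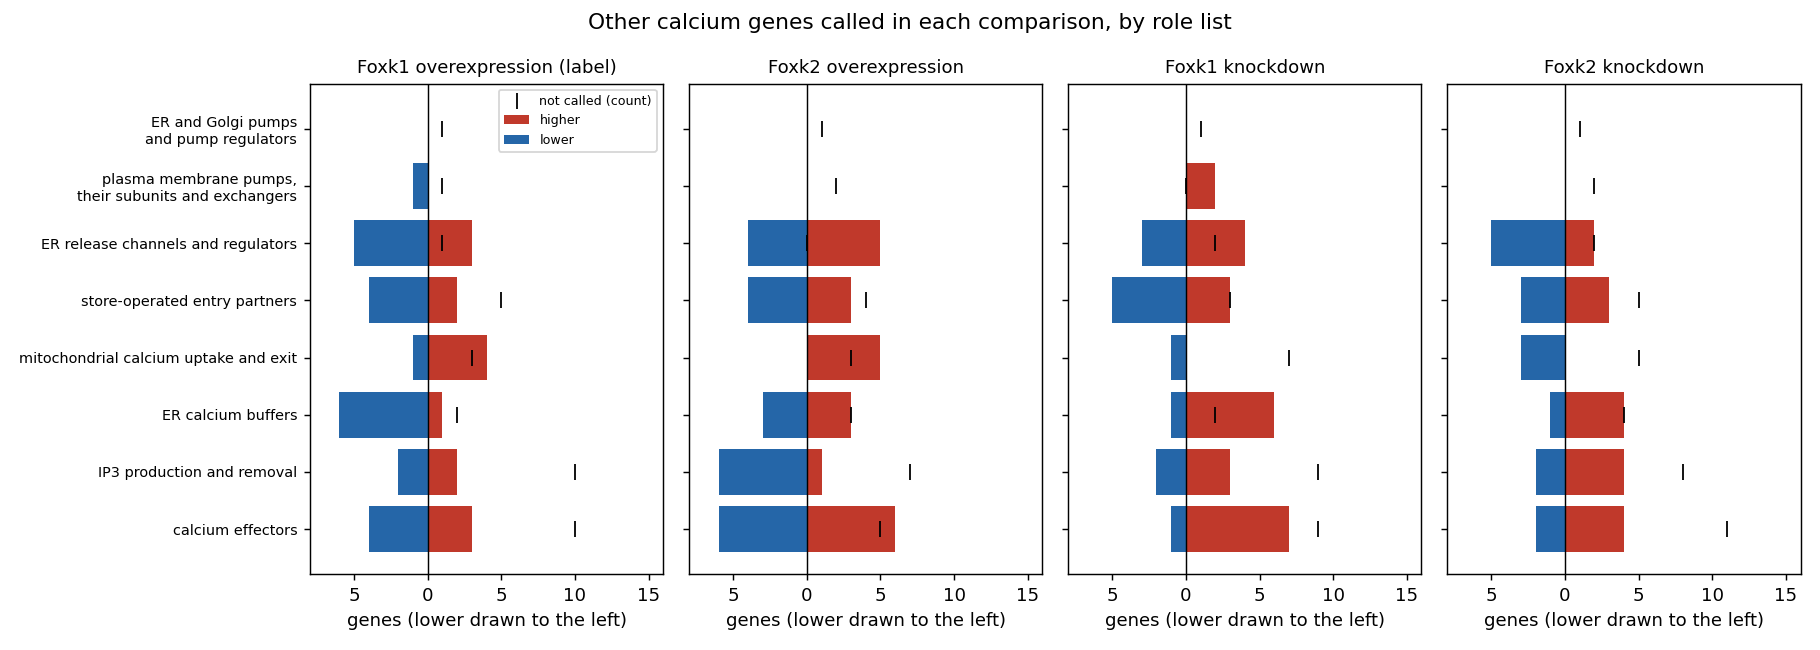
Number of other calcium genes called higher (red, to the right of 0) and lower (blue, to the left of 0) in each role list and comparison, with the number not called as a black tick. Of 9 ER calcium buffers, 6 were lower and 1 higher in the labelled Foxk1 overexpression, and 6 higher and 1 lower in Foxk1 knockdown. In Foxk2 overexpression 3 were higher and 3 lower, and in Foxk2 knockdown 4 higher and 1 lower. Over all genes tested, 15.5 to 24.1% were called in each direction of a comparison.

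Of pumps and exchangers, the Golgi pump Atp2c1 was the only one of its list tested and was called in no comparison. Nptn, a subunit of PMCA pumps, fell by 0.21 ± 0.036 in the labelled Foxk1 overexpression (SE, limma adjusted p = 0.000152) and rose by 0.135 ± 0.036 in Foxk1 knockdown (limma adjusted p = 0.00739), a call lost with the length and GC trend removed (0.046). Slc8a1, the plasma membrane sodium-calcium exchanger, rose in Foxk1 knockdown from 2.97 to 4.87 RPKM (log2 0.64 ± 0.13, limma adjusted p = 0.00102). The other plasma membrane genes of the list were below the filter.

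Among 9 regulators of release channels, 3 rose and 5 fell in the labelled Foxk1 overexpression, and 5 rose and 4 fell in Foxk2 overexpression. In Foxk1 knockdown 4 rose and 3 fell, and in Foxk2 knockdown 2 rose and 5 fell. The ryanodine receptors Ryr1, Ryr2 and Ryr3 were below the filter. Ahcyl1, the IP3 receptor inhibitor IRBIT, rose in Foxk2 overexpression from 31.2 to 63.6 RPKM (log2 1.01 ± 0.042, SE, limma adjusted p = 6.93e-11) and by 0.575 ± 0.034 in the labelled Foxk1 overexpression. It fell in Foxk2 knockdown by 0.20 ± 0.042. Its relative Ahcyl2 fell in both overexpressions, by 0.90 ± 0.048 and by 0.78 ± 0.039, and rose by 0.33 ± 0.039 in Foxk1 and 0.20 ± 0.048 in Foxk2 knockdown, the last lost with the length and GC trend removed (log2 0.066). Pkd2, an ER cation channel, fell in both overexpressions, by 1.06 ± 0.056 with Foxk2 and by 0.705 ± 0.046 in the labelled Foxk1 libraries. It rose in both knockdowns, by 0.87 ± 0.056 with Foxk2 and by 0.48 ± 0.046 with Foxk1 (limma adjusted p at most 8.15e-07 in the 4). Tmbim6, which lets calcium leak from the ER, rose from 330.2 to 648.5 RPKM in the labelled Foxk1 overexpression (log2 0.975 ± 0.044, limma adjusted p = 9.23e-11) and by 0.21 ± 0.054 in Foxk2 overexpression, a call lost without control replicate 1 (0.166) and with the 2 groups fitted alone (0.213). It fell by 0.34 ± 0.044 in Foxk1 knockdown and by 0.38 ± 0.054 in Foxk2 knockdown. Bok, which binds IP3 receptors, was called lower in all 4 comparisons, by 0.80 ± 0.061 in Foxk1 knockdown, 0.77 ± 0.075 in Foxk2 knockdown and 0.22 ± 0.061 in the labelled Foxk1 overexpression. In Foxk2 overexpression (log2 -0.20 ± 0.075) the call was lost under several other settings, among them without control replicate 2 (-0.138) and with the length and GC trend removed (-0.0085).

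Of 11 partners of store-operated entry, 2 rose and 4 fell in the labelled Foxk1 overexpression, and 3 rose and 5 fell in Foxk1 knockdown. In Foxk2 overexpression 3 rose and 4 fell, and in Foxk2 knockdown 3 rose and 3 fell. Trpc1, a cation channel of the plasma membrane, rose in both overexpressions, by 0.72 ± 0.067 in the labelled Foxk1 libraries (SE, limma adjusted p = 3.07e-07) and by 0.85 ± 0.082 with Foxk2 (limma adjusted p = 5.51e-07). It fell in both knockdowns, by 0.33 ± 0.067 with Foxk1 and by 0.42 ± 0.082 with Foxk2. Saraf, which turns store-operated entry off, fell in Foxk1 knockdown from 104.9 to 84.7 RPKM (log2 -0.31 ± 0.033, limma adjusted p = 3.19e-06) and in Foxk2 knockdown from 158.9 to 109.6 RPKM (log2 -0.53 ± 0.041, limma adjusted p = 8.34e-08). Its rise of 0.16 ± 0.041 in Foxk2 overexpression was lost without control replicate 1 (log2 0.095), with quantile normalization (0.068) and with the 2 groups or the Foxk2 set fitted alone (0.159 in both). Esyt1, a tether between the ER and the plasma membrane, fell in Foxk1 knockdown by 0.36 ± 0.045, in Foxk2 overexpression by 0.49 ± 0.055 and in Foxk2 knockdown by 0.19 ± 0.055. The last was lost without replicate 2 of Foxk2 knockdown (log2 -0.165) or of its control (-0.178). Orai2, another ORAI subunit, fell in both overexpressions, by 0.83 ± 0.094 in the labelled Foxk1 libraries and by 0.88 ± 0.12 with Foxk2. Its levels there were low, at 0.716 against 1.645 RPKM and 0.475 against 1.298 RPKM, near the added 0.5. Orai2 rose in both knockdowns, by 0.36 ± 0.094 with Foxk1 and 0.84 ± 0.12 with Foxk2 (limma adjusted p at most 0.00744 in the 4). Orai3 fell by 0.17 ± 0.064 in Foxk2 overexpression (limma adjusted p = 0.037), a call lost without replicate 1 (-0.112) or control replicate 2 (-0.116) and under other settings. It fell by 0.15 ± 0.052 in the labelled Foxk1 overexpression (limma adjusted p = 0.0276), a call lost without replicate 2 or 3 of that group (-0.13 and -0.14) or control replicate 1 (-0.092). Cracr2b fell by 0.52 ± 0.10 there (limma adjusted p = 0.000699).

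Of 8 mitochondrial calcium genes, 4 rose and 1 fell in the labelled Foxk1 overexpression, and 5 rose and 0 fell in Foxk2 overexpression. None rose in the knockdowns, where 1 and 3 of 8 fell. Mcu, the pore of the uniporter, rose in the labelled Foxk1 overexpression by 0.41 ± 0.059 (SE, limma adjusted p = 3.81e-05). Smdt1, the essential uniporter subunit, rose in the labelled Foxk1 overexpression by 0.20 ± 0.054 and with Foxk2 overexpression by 0.30 ± 0.066 and fell with Foxk2 knockdown by 0.245 ± 0.066 (limma adjusted p = 0.00673, 0.00133 and 0.00864). Both rises lost their call with the 2 groups fitted alone (0.196 and 0.303). The fall was lost without Foxk2 knockdown replicate 2 (-0.23) or its control replicate 2 (-0.21).

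Of 9 ER calcium buffers, 6 fell and 1 rose in the labelled Foxk1 overexpression, and 6 rose and 1 fell in Foxk1 knockdown. In Foxk2 overexpression 3 rose and 3 fell, and in Foxk2 knockdown 4 rose and 1 fell. Rcn3, a reticulocalbin of the secretory pathway, had the largest changes: 51.0 to 17.5 RPKM in the labelled Foxk1 overexpression (log2 -1.51 ± 0.11, SE, limma adjusted p = 1.16e-08) and 13.2 to 41.3 RPKM in Foxk2 knockdown (log2 1.61 ± 0.13, limma adjusted p = 1.48e-07). It rose in Foxk1 knockdown by 1.03 ± 0.11 and fell in Foxk2 overexpression by 1.33 ± 0.13. Rcn1 went the same way in all 4, between -0.60 and 0.70. The chaperones Hsp90b1 and Canx rose in Foxk2 overexpression by 0.34 ± 0.047 and 0.19 ± 0.047. Hsp90b1 fell in the labelled Foxk1 overexpression by 0.17 ± 0.038 and rose in Foxk1 knockdown by 0.245 ± 0.038, and Canx fell in Foxk2 knockdown by 0.18 ± 0.047, a call lost without control replicate 2 (-0.166). The rise of Canx was lost with quantile normalization (0.094). Rcn3 and Rcn1 thus followed the fibroblast markers, whose part was not tested.

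Of 14 genes of IP3 production and removal, 2 rose and 2 fell in the labelled Foxk1 overexpression, 3 rose and 2 fell in Foxk1 knockdown, 1 rose and 6 fell in Foxk2 overexpression, and 4 rose and 2 fell in Foxk2 knockdown. Plcb4, a phospholipase C, rose in Foxk2 overexpression from 4.58 to 8.56 RPKM (log2 0.835 ± 0.099, SE, limma adjusted p = 4.77e-06) and by 0.505 ± 0.081 in the labelled Foxk1 overexpression, and fell in Foxk2 knockdown by 0.43 ± 0.099. Plcd1, another phospholipase C, fell in Foxk2 overexpression by 0.54 ± 0.099 and rose in the knockdowns by 0.51 ± 0.081 (Foxk1) and 0.825 ± 0.099 (Foxk2). Itpkb, a kinase that consumes IP3, rose in both knockdowns, by 0.30 ± 0.050 and 0.49 ± 0.062, and fell in Foxk2 overexpression by 0.38 ± 0.062.

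Of 17 calcium effectors, 3 rose and 4 fell in the labelled Foxk1 overexpression, 7 rose and 1 fell in Foxk1 knockdown, 6 rose and 6 fell in Foxk2 overexpression, and 4 rose and 2 fell in Foxk2 knockdown. Nfatc4, a factor activated by calcineurin, fell from 15.75 to 7.38 RPKM in the labelled Foxk1 overexpression (log2 -1.04 ± 0.065, SE, limma adjusted p = 3.39e-09) and from 15.98 to 7.31 RPKM in Foxk2 overexpression (log2 -1.08 ± 0.080, limma adjusted p = 2.92e-08). It rose in Foxk2 knockdown by 0.51 ± 0.080. The calmodulin genes went apart: Calm2 rose in both overexpressions, by 0.43 ± 0.041 and 0.51 ± 0.050, and Calm3 fell in both, by 0.32 ± 0.043 and 0.46 ± 0.053. Calm2 fell in Foxk2 knockdown by 0.31 ± 0.050, and Calm3 rose in both knockdowns, by 0.25 ± 0.043 and 0.40 ± 0.053. Near-identical coding sequences could let reads of calmodulin genes be split, so these values are uncertain. Rcan1, an inhibitor of calcineurin, rose by 0.28 ± 0.062 in Foxk2 overexpression. It fell by 0.18 ± 0.051 in Foxk1 knockdown (limma adjusted p = 0.0125), a call lost without scrambled control replicate 1 (-0.147) or knockdown replicate 2 (-0.145).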

How the data were processed

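Messenger RNA was measured in 20 libraries of 8 groups. Per the submitters' processing notes, HISAT2 2.1.0, Picard 1.141, Subread 1.5.1 with featureCounts, edgeR and the mm10 build were used; their roles and settings are not given in the sources used here. The authors deposited 1 table of RPKM values, with no read counts. The depth per library was fitted so that values came out as whole multiples of 1 read. It used rows whose identifier matched GENCODE M21 with its version, and 100% of their values above 0 came out whole within 0.1 read. For 5811 other genes, Atp2b1, Itpr1 and Itpr3 among them, the shortest exon length that gave whole reads was taken. The share is therefore no check on these genes. Gene positions came from GENCODE M21, whose identifiers matched 48058 of 48440 rows without the version and 40606 with it.

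The members, the lists of other calcium genes and the marker lists were chosen with earlier results of these data known. A gene entered the tests if 2 libraries or more held it at 0.5 RPKM or above (15981 genes; 18295 were at 0 in every library), with limma 3.58.1 in R 4.3.3, with a mean trend, on log2(RPKM + 0.5), in 1 fit of 8 group means with 12 residual degrees of freedom. Tests were two-sided, with Benjamini-Hochberg adjustment over all genes tested and a threshold of 0.05. Fold changes on this scale understate the change of low genes. The depth of 16739763 to 36157010 reads gave a median SD between replicates of 0.039 to 0.082 on the log2 scale. Intervals are at 95%.

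Named besides the members were, per role list and comparison, up to 2 called genes of largest size in each direction at a mean of 2 RPKM or more, and list genes outside this rule where few went one way; the text gives a selection of these. The fitting script was tested on simulated data. Near-identical copies were matches of at least 100 bases at 99% identity (BLAST+ 2.17.0). Replicate numbers were not used to pair libraries in the main fit: deviations of same-numbered libraries correlated across genes at -0.0858 to 0.0331. These correlations cannot show whether same-numbered libraries were handled together. With 2 libraries a group, as in the Foxk2 set, different-numbered libraries give the same values with the sign turned. Alternatives were other pseudocounts (0.1 and 1), filters, scalings, sets of libraries and variance models, limma-voom on the recovered reads, a replicate block, removal of the trend on length and GC content, and leaving out each of the 20 libraries. Some other called comparisons of the named wider calcium genes are given beside them. These were chosen after their values were seen and were run under the same alternatives.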

Additional observations from a re-analysis of the deposited data

Results flagged for a closer look

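The effects of the 2 factors on a member differed by a test of the difference itself, the contrast of contrasts in the limma fit, for 5 members in overexpression and 2 in knockdown. Every such difference crosses the 2 sets of libraries, which differ in depth and replicate number and cannot be told apart from the factor, and the libraries labelled Foxk1 overexpression did not have more Foxk1 mRNA but had more Foxk2 mRNA. The members were chosen with the single effects known, so the adjusted p-values are a description.

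In overexpression, the effect labelled Foxk1 minus that of Foxk2 was -0.588 ± 0.069 for Atp2b4 (log2, SE; limma adjusted p = 2.52e-05), -0.384 ± 0.074 for Itpr1 (limma adjusted p = 0.00153) and 0.667 ± 0.098 for Itpr3 (limma adjusted p = 0.000186). For the sensors it was -0.317 ± 0.057 for Stim1 (limma adjusted p = 0.000844) and -0.334 ± 0.081 for Stim2 (limma adjusted p = 0.00684). Itpr1 was higher in both, by less in the labelled Foxk1 libraries, while Atp2b4, Itpr3 and Stim2 had effects near 0 there.

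In knockdown, the difference was -0.888 ± 0.11 for Atp2a3 (limma adjusted p = 0.000103), lower in both knockdowns. For Stim1, higher in both, it was -0.203 ± 0.057 (limma adjusted p = 0.0249). The latter was lost with the length and GC trend removed (-0.0922) and without Foxk1 knockdown replicate 1 (-0.192), Foxk2 scrambled control replicate 2 (-0.18), Foxk2 knockdown replicate 1 (-0.194) or Foxk2 knockdown replicate 2 (-0.213).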

How the results depend on the processing

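Of the member counts, these moved by over 1.5 times. With the length and GC trend removed, 5 members were lower in Foxk1 knockdown (2 as reported) and 7 in Foxk2 knockdown (4 as reported). With limma-voom, 5 members differed between the Foxk2 control types (3 as reported). Leaving out 1 library gave 1 to 3 members with different knockdown effects (2 as reported). The replicate block left the member counts as they were (3 higher and 2 lower in the labelled Foxk1 overexpression, for example) and took the call from Homer3 in Foxk1 knockdown (0.166) and from Micu3 (-0.152) and Gnaq (-0.0813) in the labelled Foxk1 overexpression. These 3 also lost it under other settings, such as the 2 groups fitted alone. With the block, 37 other calcium genes were called in the labelled Foxk1 overexpression (38 without), 36 in Foxk1 knockdown (38), 40 in Foxk2 overexpression (46) and 34 in Foxk2 knockdown (33). In Foxk2 overexpression the block also took the calls of Bok (-0.201) and Plcb3 (-0.149), and in Foxk1 knockdown that of Ppp3ca (0.132). Plcb3 in Foxk2 overexpression turned from -0.149 to 0.0559 with the length and GC trend removed. Stim2 in Foxk2 knockdown lost its call with the 2 groups fitted alone (-0.278).

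The other values that changed sign were all of members and uncalled as reported. With quantile normalization they were Atp2a2 (-0.0225) and Itpr3 (0.0754) in the labelled Foxk1 overexpression, Itpr1 between the Foxk1 control types (-0.0326) and the knockdown difference of Itpr3 (0.16). With the length and GC trend removed they were Itpr3 in the labelled Foxk1 overexpression (0.0641), Atp2a2 in Foxk1 knockdown (-0.0137), Atp2b1, Itpr1 and Itpr3 between the Foxk1 control types (-0.00029, -0.0315 and -0.027), the overexpression difference of Orai1 (-0.113) and the knockdown difference of Itpr3 (0.136). With median-ratio scaling they were Atp2b1 and Itpr1 between the Foxk1 control types (-0.0214 and -0.0272). Leaving out 1 library gave ranges across 0 for Itpr3 (-0.0455 to 0.0217) and Stim2 (-0.0357 to 0.0659) in the labelled Foxk1 overexpression, Orai1 in Foxk1 knockdown (-0.178 to 0.00948), Atp2a2 (-0.0221 to 0.0218) and Orai1 (-0.0952 to 0.0923) between the Foxk1 control types, and the differences of effects of Orai1 in overexpression (-0.0345 to 0.119), Itpr3 in knockdown (-0.0995 to 0.0464) and Orai1 in knockdown (-0.0273 to 0.243). The cause was not tested.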

Other observations

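Levels of 3 members separated the 2 sets of libraries whatever the manipulation. Stim1 read 5.39 to 9.29 RPKM in the 12 libraries of the Foxk1 set and 13.6 to 18.3 RPKM in the 8 libraries of the Foxk2 set. Orai1 read 4.40 to 5.92 RPKM in the first and 6.02 to 7.75 RPKM in the second, and Atp2a2 47.2 to 53.2 RPKM in the first and 54.6 to 63.3 RPKM in the second. The set, its depth and any other step that differed between the sets cannot be told apart, and no test was run. How many of all genes tested had ranges apart between the sets was not counted. Nothing is therefore read from the number of members.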
